A study of Mus musculus with 10 samples.

Results

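The replication-dependent histone genes encode the histones that package newly copied DNA. They were taken as all genes in the deposited files whose older mouse symbol starts with Hist1, Hist2, Hist3 or Hist4, without pseudogenes. This gave 64 of the 41388 genes, of which 6 encode the linker histone H1 and 18, 15, 12 and 13 encode the core histones H2A, H2B, H3 and H4. The Hist1 cluster on chromosome 13 holds 52 of them, Hist2 on chromosome 3 holds 9, Hist3 on chromosome 11 holds 2 and Hist4 on chromosome 6 is a single H4 gene. The symbols Hist2h2bb, Hist1h2bm and Hist1h2bh were not analysed here. Whole ear skin was profiled in 6 Experimental and 4 Littermate C57Bl/6 mice, each giving 1 RNA-seq library. Both groups were treated daily for 12 days with topical calipotriol (MC903) at 1 nM, a vitamin D analogue that inflames the skin and causes itch, so that no untreated skin was compared. The series text calls the Experimental genotype NaV1.8+ Il4raF/F, a floxed chain of the IL-4 and IL-13 receptors, whereas the genotype label of these samples reads NaV1.8+ Jak1F/F, a floxed kinase that signals downstream of such receptors. Littermates are labelled WT. NaV1.8 is a sodium channel of sensory neurons for pain and itch, whose cell bodies lie outside the skin, and the labels give no age or sex.

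The total count per library ran from 11520348 to 41935183 in Experimental mice and from 12865459 to 14324433 in Littermates, so that 3 counts were worth between 0.0715 and 0.260 CPM, the count scaled to a library total of 1e6. Histone genes took 0.165% to 0.204% of the counts in Experimental libraries and 0.170% to 0.218% in Littermate libraries. Neither candidate target passed the test in whole skin. Il4ra had a lowest, median and highest value of 130, 183 and 270 normalized CPM in Experimental mice, against 183, 224 and 235 in Littermates (edgeR, adjusted p = 0.678). Jak1 had 272, 299 and 323 in Experimental mice, against 279, 312 and 335 in Littermates (edgeR, adjusted p = 0.815). The gene of NaV1.8, Scn10a, was nearly absent, with 2 counts in all. Markers of the skin's keratinocytes (Krt5, Krt14, Krt1 and Krt10) summed to 23976 to 31688 normalized CPM in Experimental and 26515 to 30887 in Littermate libraries, and so were abundant in every library. In bulk tissue, fewer dividing cells and less histone RNA per cell cannot be told apart.

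Histones are made mainly during S phase, when replicating DNA needs new nucleosomes. Each nucleosome wraps DNA around pairs of the core histones H2A, H2B, H3 and H4, and H1 binds the linker DNA between them. The RNAs of these genes typically lack introns and a poly(A) tail, and end instead in a conserved stem-loop that binds the stem-loop binding protein SLBP and directs 3′ end formation, translation and decay. Because ribosomal RNA was removed by hybridization and reverse transcription used random hexamers, such RNAs were kept in these libraries. In skin, dividing cells lie mostly in the basal epidermis and in hair follicles.

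The stem-loops are shown because they are the feature that sets these RNAs apart from polyadenylated RNAs. A search after the stop codon in the GENCODE M21 transcripts looked for 16 bases that start with GG, with 6 base pairs closing a 4-base loop that starts with TT. It found 1 in 42 members, at 22 to 59 bases after the stop codon, of the 50 members whose annotated transcript holds at least 16 bases there. All 42 hairpins lay inside the gene models used for counting. A hairpin of this form occurred anywhere in a transcript of 88 of 21837 other protein-coding genes (0.40%). The examples below give 5 bases of flank on either side in lower case, with the hairpin in capitals, on the sense strand of GRCm38 and with the coordinates of the hairpin.
Hist1h4d, chr13:23581950-23581965 (+): ccaaaGGCCCTTTTCAGGGCCactac
Hist4h4, chr6:136803998-136804013 (-): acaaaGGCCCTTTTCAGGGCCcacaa
Hist2h4, chr3:96262939-96262954 (-): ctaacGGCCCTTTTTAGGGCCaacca
Hist1h1c, chr13:23739512-23739527 (+): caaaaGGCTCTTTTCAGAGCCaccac
Hist1h2bg, chr13:23571843-23571858 (+): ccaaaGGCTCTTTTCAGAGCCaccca
Hist1h3c, chr13:23745047-23745062 (-): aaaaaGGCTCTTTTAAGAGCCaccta
Hist2h2ac, chr3:96220418-96220433 (-): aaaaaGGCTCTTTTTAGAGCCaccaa
Only 6 different hairpins were found. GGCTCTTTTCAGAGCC occurred in 24 members, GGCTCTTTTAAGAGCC in 6 and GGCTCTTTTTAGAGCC in 1, and all of these encode H1, H2A, H2B or H3. The H4 genes with a hairpin carried other stems, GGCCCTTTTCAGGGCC in 7, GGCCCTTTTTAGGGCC in 2 and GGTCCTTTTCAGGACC in 2.

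Coding sequences were alike to a different degree within each type. The 13 H4 genes had 12 different coding sequences and a single 103-residue protein. The 12 H3 genes had 12 coding sequences and 3 proteins, whereas the 18 H2A genes gave 9 proteins and the 15 H2B genes 9. The median identity between coding sequences of the commonest length was 93.9% in H4 (lowest 85.3%) and 97.6% in H3 (lowest 93.7%). It was 96.4% in H2A (lowest 77.6%) and 97.4% in H2B (lowest 84.8%). All 6 H1 genes encoded different proteins.

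This identity bears on the counts, since reads were 50 bases long and the sources used here do not say how reads that match several places were handled. The plot of counts against shared sequence sets both side by side. In 39 members at least 50% of the 50-base windows also occurred in a transcript of another gene, and only Hist1h1a, Hist1h1b, Hist1h1t and Hist2h2be had none. No count was recorded in any library for 7 members, namely Hist2h2aa1, Hist2h2aa2, Hist2h3c1, Hist2h3b, Hist1h2ao, Hist1h2ap and Hist1h2bq. Of these, the 4 Hist2 genes shared 100% of their windows, and the other 3 shared 93.1% to 97.3%. Genes annotated over the same bases count as sharing too, so not all of this is identity between histone copies. Gm20628 overlaps 488 bases of Hist2h3b on the opposite strand, and Gm20634 overlaps 1820 bases of Hist2h3c1 on the same strand. A count of 0 therefore says nothing here about the RNA of the 4 Hist2 genes. Hist1h2ao, Hist1h2ap and Hist1h2bq had 28, 30 and 54 windows found in no other gene, so their count of 0 speaks only for these windows. A high share did not always go with a count of 0, since Hist1h2ai shared 90.1% of its windows and had 4401 counts. Levels of H2A, H2B, H3 and H4 genes are accordingly uncertain between near-identical copies.

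**Figure D1:**
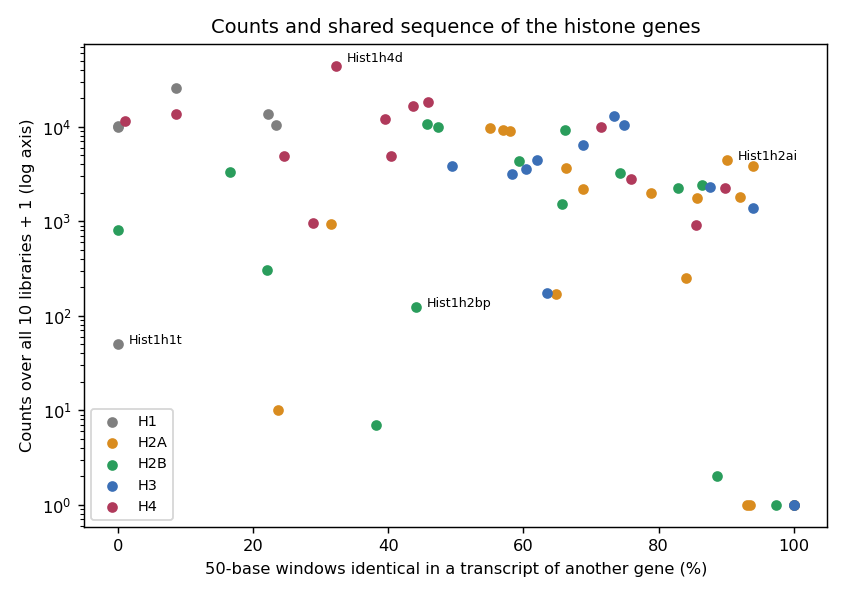
Counts over all 10 libraries plus 1 (log axis) of each of the 64 histone genes, against the share of its 50-base windows found in a transcript of another gene; each point is a gene, coloured by histone type. The 7 genes with no counts lie at the lower right, at 93.1% shared windows or more, while Hist1h1t is low with 0% shared.

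The remaining low members included the genes of the male germ line. Hist1h1t, the testis linker histone, had 49 counts over all libraries and shares no window with another gene. Hist1h2aa and Hist1h2ba, the testis H2A and H2B, had 9 and 6 counts. The germ cell markers Ddx4, Dazl and Sycp3 together reached at most 0.620 normalized CPM in Experimental and 0.547 in Littermate libraries. With Hist1h2bp at 124 counts and Hist1h2br at 1, these left 52 members that passed the filter on low counts and were tested. The tested members are those with enough counts assigned to them, and do not stand for all 64. An untested member with shared windows may still be expressed.

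Among the tested members the level per length spanned 691-fold, between 0.841 normalized CPM per kilobase for Hist2h3c2 and 581 for Hist1h4d, with a median of 37.2. Hist2h3c2 shares 63.5% of its windows, so its low level and the span are uncertain. H4 genes gave 46.1 ± 1.66% of the summed level per kilobase in Experimental mice (SD, n = 6) and 45.5 ± 2.46% in Littermates (SD, n = 4). H2A gave 16.1 ± 0.731% in Experimental mice and 17.0 ± 0.728% in Littermates. H2B gave 13.8 ± 0.441% in Experimental mice and 14.0 ± 0.381% in Littermates. The shares of H3 were 12.0 ± 0.456% in Experimental mice and 11.9 ± 0.621% in Littermates, and those of H1 were 12.0 ± 1.12% in Experimental mice and 11.6 ± 1.26% in Littermates. Per length in the files, H4 thus led in both groups, and each type's share differed between the groups by less than 1 percentage point. Window sharing differed between genes of the types, with 32.3% for Hist1h4d and 94.0% for the H2A gene Hist1h2af. Reads from shared windows may have been lost, so the ranking of types is uncertain too. The plot of single genes shows that the genes of each core type differed by more than 10-fold, whereas the 5 tested H1 genes stayed between 70.9 and 94.9 normalized CPM per kilobase.

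**Figure D2:**
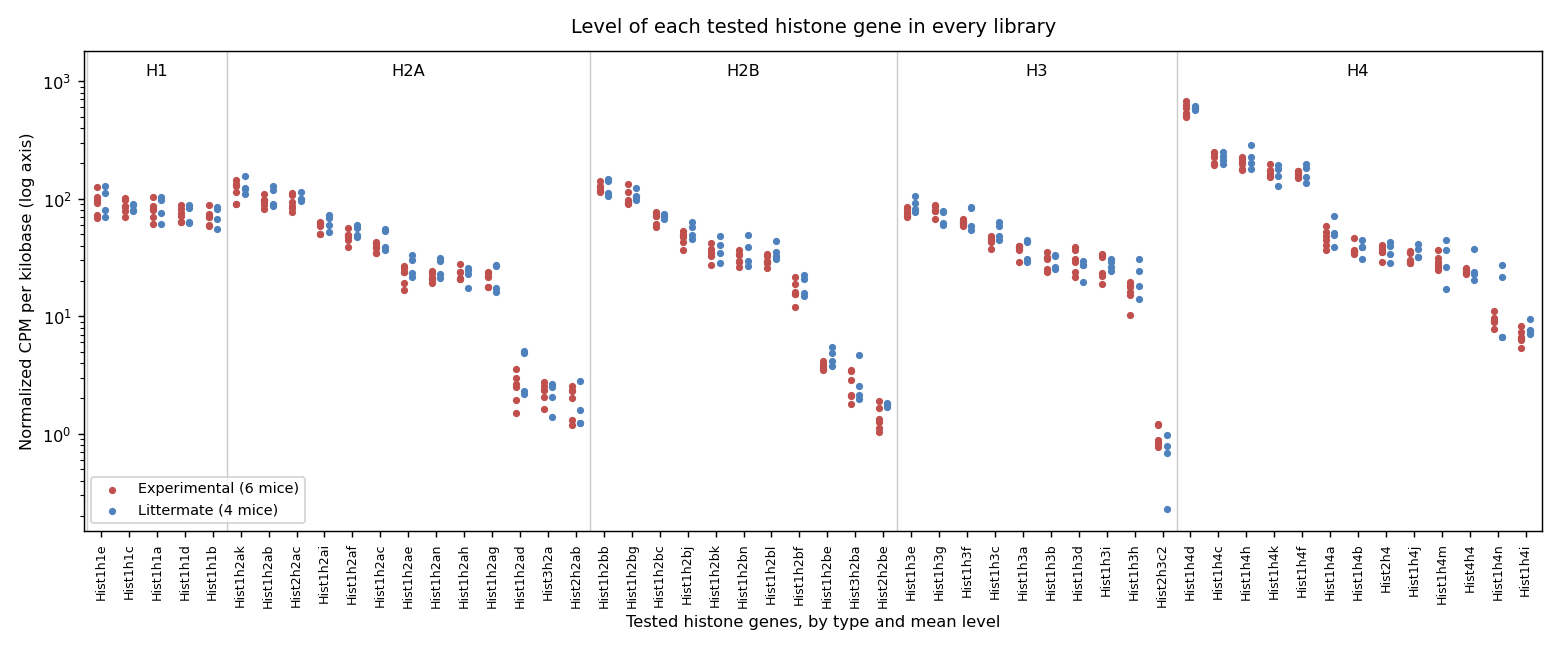
Level of the 52 tested histone genes in normalized CPM per kilobase (log axis), grouped by type and ordered by mean level; red points are the 6 Experimental libraries and blue points the 4 Littermate libraries. Hist1h4d stood highest at a mean of 581 and Hist2h3c2 lowest at 0.841, and the points of both groups overlapped for each of the 52 genes.

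No histone gene passed the test between Experimental and Littermate mice. Genes were tested with edgeR's quasi-likelihood test at an adjusted p under 0.05, and 0 of 52 members passed, against 3 of all 16830 tested genes (0.0178%). The lowest adjusted p of a member was 0.313 (edgeR, Hist1h3c). At an unadjusted p under 0.05 there were 6 members (11.5%), all with lower values in Experimental mice, against 11.8% of all tested genes, of which 1363 were lower and 615 higher. For 0 members did the groups not overlap in either direction, while all Experimental libraries lay below all Littermate libraries in 1.35% of all tested genes and above them in 0.761%. In these counts the histone genes did not exceed the background of all genes.

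The members' direction leaned to lower values in Experimental mice. The log2 fold change of Experimental over Littermate was below 0 in 41 of 52 members (78.8%), against 50.4% of all tested genes, although after a correction for GC content the count was 28 of 52. Its median was -0.12 over the members, with a range from -0.72 to 0.51, against -0.0013 over all tested genes. Without Littermate 2 the count was 27 of 52 and the median -0.02, and without Littermate 1 they were 32 and -0.03. The GC correction used the longest annotated transcript of each gene, which for some members is not the model used for counting. Genes of one cluster share libraries and partly reads, so the members are not independent. For 49 of 52 members the 95% interval of the log2 fold change stayed within a 2-fold change in either direction, and the standard errors ran from 0.08 to 0.36. Changes of 2-fold or more therefore lay outside the interval for these 49 members, and for the more precise ones smaller changes did too, as for Hist1h2bc with an interval from -0.22 to 0.14.

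**Figure D3:**
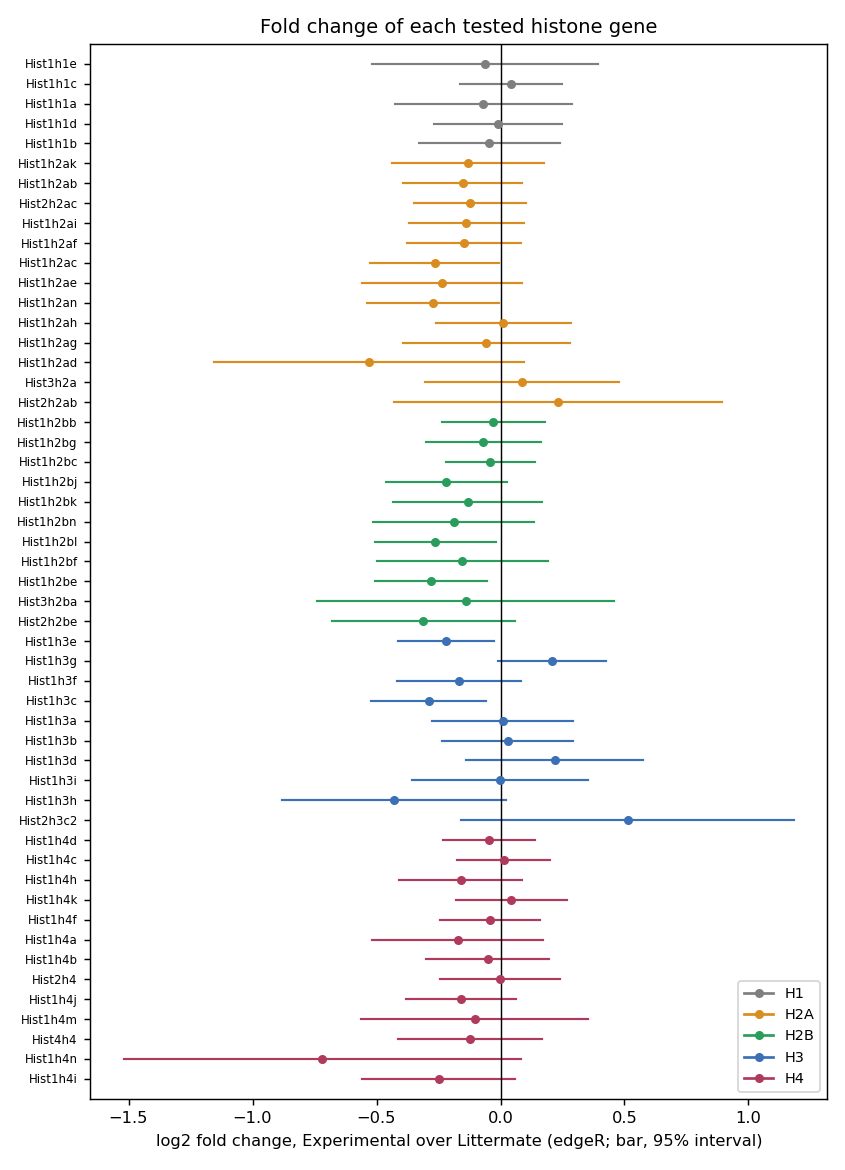
Log2 fold change of Experimental over Littermate (horizontal axis; edgeR, with 95% intervals as bars) for the 52 tested histone genes, grouped and coloured by type and ordered by mean level. Points left of 0 are lower in Experimental mice, as in 41 of the 52 genes; Hist1h4n has the lowest value, -0.72, and Hist2h3c2 the highest, 0.51.

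By type, the summed levels overlapped between the groups throughout. H4 summed to 1626, 1673, 1428, 1491, 1694 and 1394 normalized CPM per kilobase in Experimental libraries 1 to 6, against 1659, 1819, 1579 and 1394 in Littermate libraries 1 to 4. H2A summed to 601, 613, 533, 466, 575 and 476 in Experimental libraries, against 688, 658, 524 and 546 in Littermates. Experimental 6 was lowest of its group for H4 and Experimental 4 for H2A, and Littermates 3 and 4 stood below Littermates 1 and 2 in both types. H2B summed to 493, 472, 447, 413, 540 and 419 in Experimental libraries, against 560, 535, 454 and 442 in Littermates. H3 summed to 427, 443, 410, 350, 431 and 365 in Experimental libraries, against 475, 497, 365 and 363 in Littermates. H1 summed to 422, 407, 425, 326, 509 and 341 in Experimental libraries, against 488, 441, 326 and 397 in Littermates. The plot of summed levels shows the spread within both groups. The median log2 fold change was -0.04 over the 5 tested H1 genes, -0.15 over the 11 H2B genes, -0.10 over the 13 H4 genes and 0.0028 over the 10 H3 genes. Without Littermate 2 the median was 0.04 over the H1 genes and 0.03 over the H4 genes, and the H1 median also lay above 0 without Littermate 1 (0.06), Experimental 4 (0.0040) or Experimental 6 (0.01). Over the 13 H2A genes it was -0.14, and 0.06 after a correction for GC content. The same correction gave medians of 0.16 over the H3, -0.05 over the H2B, -0.05 over the H4 and -0.01 over the H1 genes.

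**Figure D4:**
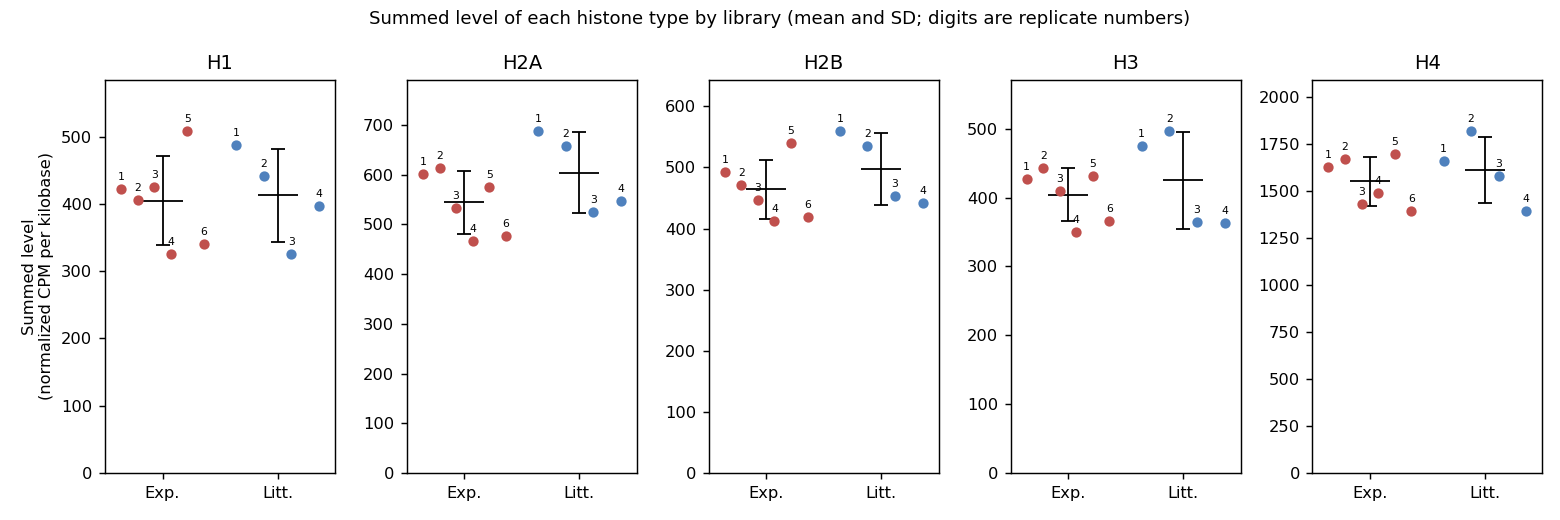
Summed level of each histone type in normalized CPM per kilobase (vertical axis, from 0) in 6 Experimental (left, red) and 4 Littermate libraries (right, blue), with replicate numbers beside the points and the mean and SD as horizontal line and bars. The ranges overlap for every type; for H2A they are 466 to 613 in Experimental and 524 to 688 in Littermate libraries.

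Many members shared the order of the libraries within a group, more clearly among Littermates than among Experimental mice. Among the Littermates, library 2 held the highest value of 30 tested members and library 1 that of 20, while library 4 held the lowest of 28 and library 3 that of 20. Among Experimental mice, library 5 was highest in 26 of 52 members and libraries 1 and 2 in 11 and 10. Libraries 4 and 6 were lowest in 22 and 20. Over all members the level summed to 3570, 3607, 3243, 3045, 3749 and 2996 normalized CPM per kilobase in Experimental libraries 1 to 6, against 3869, 3950, 3247 and 3144 in Littermate libraries 1 to 4. Littermates 1 and 2 thus stood above the other two by more than the group means differed. Genes of DNA replication showed some of the same order, with sums of 952, 980, 806, 897, 1004 and 903 normalized CPM in Experimental libraries, against 916, 902, 818 and 820 in Littermates. Genes of G2 and mitosis summed to 889, 969, 837, 715, 1055 and 858 in Experimental libraries, against 1013, 883, 727 and 883 in Littermates. The part of these in the histone values was not tested. The biological coefficient of variation, the spread between mice beyond counting error, had a median of 13.3% over the tested members and 11.8% over all tested genes.

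Linker histone H1 genes, which compact chromatin between nucleosomes, had levels per kilobase between 70.9 and 94.9 in the 5 tested genes. Hist1h1c (ENSMUSG00000036181, mm10 chromosome 13, 23738808 to 23740367) had 136, 133, 151, 109, 160 and 123 normalized CPM in Experimental libraries, against 141, 137, 122 and 124 in Littermates. The Littermate values all fell within the Experimental range. edgeR gave Hist1h1c a log2 fold change of 0.04 ± 0.10 (SE, adjusted p = 0.901). Hist1h1e had 72.7, 69.2, 76.8, 54.0, 94.6 and 51.2 in Experimental libraries, against 96.2, 59.9, 51.9 and 83.5 in Littermates, and so varied widely in both groups (edgeR, log2 fold change -0.06 ± 0.21, adjusted p = 0.936). Hist1h1a, which shares no window with another gene, had 52.8, 55.6, 51.5, 38.9, 66.4 and 45.0 in Experimental libraries, against 63.3, 66.2, 38.9 and 48.5 in Littermates (edgeR, log2 fold change -0.07 ± 0.16, adjusted p = 0.908). Experimental 4 and Littermate 3 gave its lowest values.

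H2A genes, whose product pairs with H2B in the nucleosome, were led by Hist1h2ak, Hist1h2ab and Hist2h2ac. Hist1h2ak had 52.2, 56.6, 45.3, 35.5, 50.0 and 35.2 normalized CPM in Experimental libraries, against 61.1, 48.9, 43.2 and 47.8 in Littermates (edgeR, adjusted p = 0.767). Hist1h2ab had 52.1, 46.5, 44.5, 39.0, 46.4 and 41.5 in Experimental libraries, against 60.4, 56.0, 42.7 and 41.2 in Littermates (edgeR, adjusted p = 0.626). Their log2 fold changes were -0.13 and -0.15, and they turned to 0.09 and 0.04 after a correction for GC content. Hist2h2ac, the highest gene of the Hist2 cluster per kilobase, had 56.2, 58.6, 43.8, 39.8, 48.3 and 45.0 in Experimental libraries, against 51.5, 59.6, 49.3 and 52.0 in Littermates (edgeR, log2 fold change -0.12 ± 0.10, adjusted p = 0.687, with a log2 fold change of 0.03 after the GC correction). The lowest p-values of the type belonged to Hist1h2an and Hist1h2ac. Hist1h2an had 8.22, 9.26, 8.48, 7.58, 9.51 and 8.19 in Experimental libraries, against 11.6, 12.4, 8.94 and 8.40 in Littermates (edgeR, log2 fold change -0.27 ± 0.12, adjusted p = 0.409, with a log2 fold change of -0.051 after the GC correction). Hist1h2ac had 20.5, 18.0, 18.4, 16.5, 19.7 and 16.3 in Experimental libraries, against 25.2, 26.4, 18.6 and 17.5 in Littermates (edgeR, log2 fold change -0.27 ± 0.12, adjusted p = 0.411). In both genes Littermates 1 and 2 lay above all Experimental libraries, while Littermates 3 and 4 lay among them.

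All 11 tested H2B genes had a log2 fold change below 0, although Hist1h2bb turned to 0.05 after a correction for GC content, and some of the genes turned when Littermate 1 or 2 was left out. Hist1h2bb had 57.7, 56.8, 52.9, 51.9, 64.4 and 53.2 normalized CPM in Experimental libraries, against 63.7, 66.4, 50.8 and 48.2 in Littermates (edgeR, log2 fold change -0.03 ± 0.10, adjusted p = 0.936). Hist1h2bg had 54.3, 46.8, 43.1, 45.1, 63.1 and 43.6 in Experimental libraries, against 58.8, 46.9, 49.8 and 50.8 in Littermates (edgeR, log2 fold change -0.07 ± 0.11, adjusted p = 0.85). Hist1h2bc had the smallest standard error of all members. Its values were 52.8, 52.5, 54.3, 42.6, 56.8 and 45.0 in Experimental libraries, against 52.7, 54.7, 52.1 and 49.1 in Littermates (edgeR, log2 fold change -0.04 ± 0.08, adjusted p = 0.892). Hist1h2be (ENSMUSG00000047246, chromosome 13, 23583742 to 23621124) had 17.1, 16.3, 15.7, 16.6, 18.3 and 15.2 in Experimental libraries, against 24.1, 21.3, 16.5 and 18.2 in Littermates. Littermates 1 and 2 stood above all Experimental libraries, and the other Littermates overlapped with them. edgeR gave Hist1h2be a log2 fold change of -0.28 ± 0.11 (SE, adjusted p = 0.316). Its model in the files covers 4374 bases, and 320 of its bases overlap Gm11398 on the same strand, so that its level is uncertain. Hist1h2bl had 12.8, 11.01, 10.7, 11.2, 12.5 and 9.87 in Experimental libraries, against 16.6, 12.4, 11.8 and 13.5 in Littermates (edgeR, log2 fold change -0.26 ± 0.11, adjusted p = 0.386). Hist3h2ba, the highest gene of the Hist3 cluster per kilobase, had 2.13, 1.75, 1.096, 1.30, 2.09 and 1.28 in Experimental libraries, against 1.56, 2.85, 1.21 and 1.32 in Littermates (edgeR, log2 fold change -0.14 ± 0.28, adjusted p = 0.887). Without Littermate 2 the log2 fold change of Hist3h2ba was 0.21.

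H3 genes divided in direction, with 5 of 10 below 0 and 5 above. Hist1h3c (ENSMUSG00000069310, chromosome 13, 23745013 to 23745501), the member with the lowest p, had 22.3, 23.5, 21.2, 18.1, 22.9 and 20.8 normalized CPM in Experimental libraries, against 28.8, 31.1, 21.7 and 23.6 in Littermates. Each Experimental value was below the Littermate median, but Littermate 3 lay among them. edgeR gave Hist1h3c a log2 fold change of -0.29 ± 0.11 (SE, adjusted p = 0.313). Hist1h3e had 70.9, 68.6, 64.4, 58.3, 62.5 and 59.1 in Experimental libraries, against 77.6, 87.9, 64.8 and 68.0 in Littermates (edgeR, log2 fold change -0.22 ± 0.09, adjusted p = 0.351). Hist1h3f had 55.1, 53.2, 54.1, 50.9, 56.6 and 49.5 in Experimental libraries, against 72.7, 70.5, 46.0 and 49.9 in Littermates (edgeR, log2 fold change -0.17 ± 0.12, adjusted p = 0.609). Here Littermates 1 and 2 lay above the Experimental range, Littermate 4 inside it and Littermate 3 below it. Hist1h3g lay on the other side of 0, with 34.5, 37.3, 33.4, 28.5, 37.7 and 33.5 in Experimental libraries, against 33.7, 32.8, 26.5 and 25.4 in Littermates (edgeR, log2 fold change 0.21 ± 0.10, adjusted p = 0.453). Neighbouring H3 genes thus gave values on either side of 0, and the difference between them was not tested.

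H4 genes encode 1 protein from many copies, and their levels per kilobase spanned from 7.25 for Hist1h4i to 581 for Hist1h4d. Hist1h4d (ENSMUSG00000061482, chromosome 13, 23581598 to 23581990) had 231, 266, 212, 195, 246 and 202 normalized CPM in Experimental libraries, against 243, 231, 233 and 224 in Littermates. All Littermate values lay inside the Experimental range. edgeR gave Hist1h4d a log2 fold change of -0.05 ± 0.09 (SE, adjusted p = 0.874). Hist1h4c had 98.3, 91.9, 79.7, 90.3, 96.7 and 76.6 in Experimental libraries, against 83.6, 98.8, 91.3 and 78.3 in Littermates (edgeR, log2 fold change 0.01 ± 0.09, adjusted p = 0.973). Hist1h4h had 97.6, 92.9, 84.2, 108, 102 and 83.1 in Experimental libraries, against 107, 135, 95.04 and 85.2 in Littermates (edgeR, log2 fold change -0.16 ± 0.12, adjusted p = 0.621). Littermate 2 held the highest value of this gene. The same library stood apart for Hist4h4, the only gene of its cluster. Hist4h4 (ENSMUSG00000096010, chromosome 6, 136801553 to 136804431) had 66.2, 68.8, 69.3, 73.5, 67.0 and 71.8 in Experimental libraries, against 69.0, 108, 66.5 and 58.6 in Littermates (edgeR, log2 fold change -0.12 ± 0.13, adjusted p = 0.769). Without Littermate 2 its log2 fold change was 0.10.

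The lowest log2 fold change of all members belonged to Hist1h4n (ENSMUSG00000069305, chromosome 13, 21831767 to 21832196). Its values were 4.03, 4.78, 3.81, 4.16, 3.93 and 3.37 normalized CPM in Experimental libraries, against 9.22, 11.6, 2.84 and 2.88 in Littermates. Littermates 1 and 2 exceeded every Experimental library, and Littermates 3 and 4 fell under every one. edgeR gave Hist1h4n a log2 fold change of -0.72 ± 0.36 (SE, adjusted p = 0.48), and -0.30 without Littermate 2. Of its 50-base windows 83.2% also occur in Hist1h4m, which had 11.7, 12.5, 9.94, 10.5, 14.7 and 11.04 in Experimental libraries, against 14.7, 18.1, 10.6 and 6.92 in Littermates. In Hist1h4m, too, Littermates 1 and 2 lay above Littermates 3 and 4, with a smaller gap. With so much shared sequence, the values of the pair are uncertain. Hist1h4i had 6.04, 3.89, 4.74, 5.38, 4.89 and 4.59 in Experimental libraries, against 5.47, 6.95, 5.61 and 5.13 in Littermates (edgeR, log2 fold change -0.25 ± 0.14, adjusted p = 0.533).

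The 27 tested members not yet described had adjusted p-values of 0.453 or higher (edgeR). Of these, 4 are given for their values, having been chosen after these were seen. Hist1h3h had 7.61, 6.56, 6.22, 7.26, 8.12 and 4.24 normalized CPM in Experimental libraries, against 9.92, 12.6, 7.38 and 5.76 in Littermates (edgeR, log2 fold change -0.43 ± 0.21, adjusted p = 0.453). Hist1h2ad had 0.895, 1.16, 1.24, 1.39, 1.66 and 0.697 in Experimental libraries, against 2.34, 2.27, 1.06 and 1.01 in Littermates (edgeR, log2 fold change -0.53 ± 0.29, adjusted p = 0.51). In both genes Littermates 1 and 2 were again the highest libraries. Hist2h3c2 had the highest log2 fold change of the members, from only 3 to 46 counts a library. Its values were 0.783, 1.24, 0.834, 0.897, 0.873 and 1.22 in Experimental libraries, against 0.234, 0.805, 0.994 and 0.700 in Littermates (edgeR, log2 fold change 0.51 ± 0.31, adjusted p = 0.558). Hist2h2be, an H2B gene known in mice for its role in olfactory neurons, shares no window with another gene. It had 3.52, 4.34, 5.03, 2.69, 3.32 and 2.96 in Experimental libraries, against 4.69, 4.39, 4.83 and 4.75 in Littermates (edgeR, log2 fold change -0.31 ± 0.17, adjusted p = 0.514). Its Littermate values lay close together and inside the Experimental range.

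Along chromosome 13 the Hist1 genes formed 4 blocks parted by more than 100 kb, of which 3 hold 17, 5 and 28 genes and the fourth the testis pair Hist1h2aa and Hist1h2ba. The map of the cluster shows high and low genes side by side in each of the larger blocks. The block of 28 genes summed to 2463 ± 223 normalized CPM per kilobase in Experimental mice (SD, n = 6) and 2577 ± 277 in Littermates (SD, n = 4). The block of 17 genes summed to 611 ± 67.7 in Experimental mice and 657 ± 96.0 in Littermates, and the block of 5 genes to 132 ± 14.4 in Experimental mice and 145 ± 26.0 in Littermates. The differences were smaller than the SD of either group. The Hist2 genes summed to 134 ± 17.2 in Experimental mice and 142 ± 12.7 in Littermates.

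**Figure D5:**
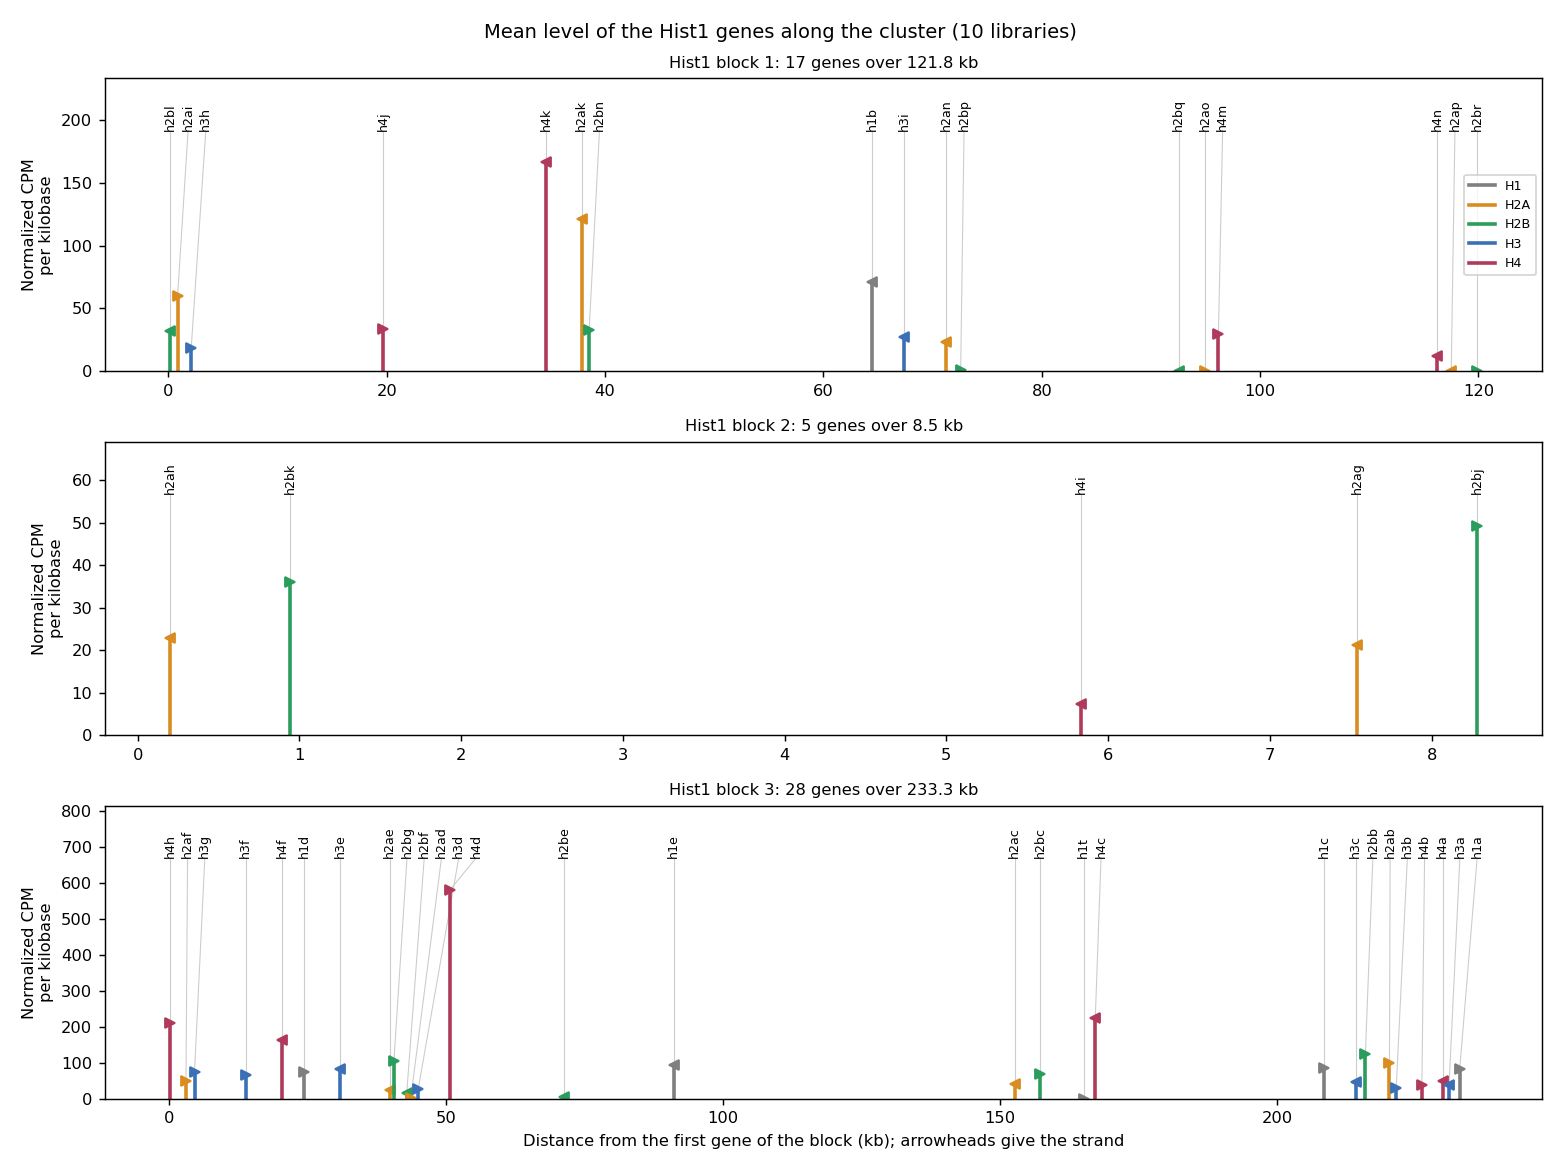
Mean level over 10 libraries in normalized CPM per kilobase (vertical axis) of the Hist1 genes in the 3 larger blocks of the cluster, against distance from the first gene of the block in kb; colours give the type, arrowheads the strand, and labels omit the prefix Hist1. Hist1h4d, at 581, stands in the third block beside genes such as Hist1h2ad at 2.96, and H2A and H2B genes often lie back to back.

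Among members with a matched RefSeq promoter, H2A and H2B genes formed 10 divergent pairs with 164 to 281 bases between their annotated starts. Each pair thus shares its upstream sequence. Divergent pairs with an unmatched gene are not in this count, such as Hist1h2ac with Hist1h2bc and Hist2h2ac with Hist2h2be. The levels within a pair were nevertheless unequal. H2B stood at 5.86 times the level per kilobase of H2A for Hist1h2bf and Hist1h2ad and at 4.30 times for Hist1h2bg and Hist1h2ae. The reverse held for Hist1h2bn, at 0.274 times Hist1h2ak, and for Hist1h2bp, at 0.0350 times Hist1h2an. Of the pairs with counts in both genes, Hist1h2bk and Hist1h2ah were closest to even, at 1.57, apart from the testis pair, which had under 10 counts in each gene. Of the pairs not counted, Hist2h2ac stood at 96.9 and Hist2h2be at 1.55 normalized CPM per kilobase, and Hist1h2ac at 41.4 and Hist1h2bc at 69.6. Near-identical copies make these ratios and levels uncertain.

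A pair of promoters is printed as examples of those with and without the octamer, from RefSeq on GRCm38.p6. The motifs in capitals, on either strand, are TATAAA (the TATA box, bound by the general transcription machinery), CCAAT (bound by NF-Y) and the octamer ATTTGCAT (bound by POU factors). Each covers 250 bases before to 50 bases after the annotated start. The first serves the divergent pair of Hist1h2bg and Hist1h2ae, and the second the highest gene, Hist1h4d.
Hist1h2bg, chr13:23571150-23571449 (+): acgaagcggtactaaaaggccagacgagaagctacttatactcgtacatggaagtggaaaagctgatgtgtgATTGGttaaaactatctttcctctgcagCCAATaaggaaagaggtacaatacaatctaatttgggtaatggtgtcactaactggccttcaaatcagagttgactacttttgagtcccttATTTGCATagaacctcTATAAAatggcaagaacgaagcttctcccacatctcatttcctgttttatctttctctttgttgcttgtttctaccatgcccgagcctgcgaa
Hist1h4d, chr13:23581318-23581617 (+): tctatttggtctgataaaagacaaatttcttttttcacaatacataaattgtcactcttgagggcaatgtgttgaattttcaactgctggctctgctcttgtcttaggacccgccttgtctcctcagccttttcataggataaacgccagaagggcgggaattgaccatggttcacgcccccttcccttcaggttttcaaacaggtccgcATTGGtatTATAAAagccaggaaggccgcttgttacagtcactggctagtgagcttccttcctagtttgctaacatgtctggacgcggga
A RefSeq promoter was matched to 59 members. CCAAT was present in 50 of the 59 (84.7%), against 37.4% of all 32851 promoters of this length. It was in each promoter of an H1, H2A, H2B or H3 gene and in 3 of 12 H4 promoters. TATAAA was present in 35 of the 59 (59.3%), against 13.6% of all promoters. The octamer ATTTGCAT was present in 11 (18.6%), against 1.74% of all promoters, namely in 7 H2A and 4 H2B promoters. These are matches of letters, and divergent pairs share some of them.

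Genes that handle histones were measured beside them. The lists of these genes were chosen with earlier results of these data known, and none of their members passed the test. The histone variants, most of which are made outside S phase too, had a median log2 fold change of -0.0027 over 11 genes, with 6 below 0. H1f0, a linker variant of differentiated cells, averaged 114 ± 8.38 normalized CPM in Experimental mice (SD, n = 6) and 130 ± 6.77 in Littermates (SD, n = 4; edgeR, adjusted p = 0.297). H2afx, the variant phosphorylated at DNA breaks, averaged 70.2 ± 8.56 in Experimental mice and 82.3 ± 4.65 in Littermates (edgeR, adjusted p = 0.331). H3f3a, which encodes H3.3, averaged 62.4 ± 7.16 in Experimental mice and 53.2 ± 7.83 in Littermates (edgeR, adjusted p = 0.406). These 3 variants had the lowest p-values of their list and went in both directions.

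The list for transcription and 3′ end formation of histone RNA, which includes Npat and Slbp, had 9 of 18 genes below 0 and a median of 0.01. Upf1, a helicase that takes part in histone RNA decay, averaged 115 ± 4.98 normalized CPM in Experimental mice and 143 ± 21.5 in Littermates (edgeR, adjusted p = 0.162). Ncbp1, a subunit of the nuclear cap-binding complex, averaged 92.5 ± 1.87 in Experimental mice and 81.5 ± 3.73 in Littermates (edgeR, adjusted p = 0.245). Sympk, a scaffold of the 3′ end cleavage complex, averaged 76.0 ± 5.07 in Experimental mice and 92.4 ± 17.3 in Littermates (edgeR, adjusted p = 0.30). Among 11 histone chaperones 5 were below 0, with a median of 0.04, and Asf1a, which hands H3 and H4 to assembly factors, had the lowest p (edgeR, log2 fold change 0.19, adjusted p = 0.455).

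In the main fit, genes of DNA replication leaned in the direction opposite to the histone genes. The histone genes below 0 were, however, only 28 of 52 after the GC correction and 27 of 52 without Littermate 2. Values of the replication genes are given for the main fit alone. Of 30 tested genes 24 had a log2 fold change above 0, with a median of 0.10, against 8341 of all 16830 tested genes and a median of -0.0013. Mcm4, a subunit of the replicative helicase, averaged 51.6 ± 5.25 normalized CPM in Experimental mice and 44.6 ± 3.36 in Littermates (edgeR, adjusted p = 0.354). Pola1, the catalytic subunit of DNA polymerase alpha, averaged 43.2 ± 4.29 in Experimental mice and 36.7 ± 6.21 in Littermates (edgeR, adjusted p = 0.413). The difference between the 2 lists was not tested. Of 15 genes of G2 and mitosis 10 were above 0, with a median of 0.05, and Ccnb1, the cyclin of mitotic entry, had the lowest p (edgeR, log2 fold change 0.23, adjusted p = 0.494).

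Of the 5 tested RNAs from the list of other RNAs without a poly(A) tail, 4 had a log2 fold change above 0, with a median of 0.08. Malat1, a nuclear RNA, averaged 12731 ± 629 normalized CPM in Experimental mice and 11308 ± 472 in Littermates (edgeR, adjusted p = 0.529). Rmrp, the RNA of a ribonuclease, averaged 805 ± 111 in Experimental mice and 704 ± 86.6 in Littermates (edgeR, adjusted p = 0.532). The 7 tested mitochondrially encoded genes were all below 0, with a median of -0.67 and a lowest adjusted p of 0.0834 (edgeR). Their sum was 4817 to 6100 normalized CPM in Experimental and 5518 to 7552 in Littermate libraries. Of 14 immediate early genes, which respond within minutes to stimuli and tissue handling, 13 were below 0, with a median of -0.29 and a lowest adjusted p of 0.145 (edgeR). Cartilage markers (Col2a1, Acan, Comp) summed to 145 to 301 in Experimental and 192 to 295 in Littermate libraries. All 3 had a log2 fold change below 0, the lowest that of Col2a1 at -0.95 (edgeR, adjusted p = 0.255). Skeletal muscle markers (Acta1, Ckm, Myh4) summed to 1705 to 2457 in Experimental and 1553 to 3575 in Littermate libraries. Here 2 of 3 were below 0, the lowest being Acta1 at -0.58 (edgeR, adjusted p = 0.355). The part of these in the histone values was not tested.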

How the data were processed

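Ribosomal RNA was removed from total RNA before random-hexamer reverse transcription and single-end sequencing of 50 bases, per the labels' protocols. The submitters' processing notes name STAR 2.0.4b, featureCounts 1.4.5, Subread and the build mm10. Neither annotation release nor strand setting is stated in the sources used here, so reads of overlapping genes on opposite strands cannot be told apart (Hist2h2ab, Hist1h4b and 3 of the genes with no counts). Per the file headers, the authors deposited a read count, a CPM and an RPKM value per gene. The deposited CPM equals the count over the library total and the deposited RPKM that value per kilobase. Only counts were tested.

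Symbols matched 97.26% of identifiers. Counts of all 10 libraries were fitted with edgeR 4.0.16 (R 4.3.3, TMM factors, filterByExpr by group, robust quasi-likelihood test, two-sided, group as the only term), with Benjamini-Hochberg adjustment over 16830 genes and a threshold of 0.05. Normalized CPM is the count over the total times the TMM factor, and per kilobase uses the length in the files. Stem-loops, windows and GC content came from GENCODE M21 transcripts (GRCm38) and promoters from RefSeq. GC content is that of the longest transcript of each gene. For some members this transcript is longer than the model in the files, as for Hist1h1d with 7425 against 744 bases. GC-corrected values of such members are uncertain. The steps were tested on simulated data. The labels do not say whether replicate numbers pair the mice, and the main fit did not pair them. P-values weigh the group difference against the spread between mice.

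The members and lists were chosen with earlier results of these data known. Named are members past the threshold, per type the 3 highest per kilobase and the 2 with the lowest p, and the highest of Hist2, Hist3 and Hist4. Of other lists up to 3 with the lowest p are named, and Hist1h4m, Hist1h3h, Hist1h2ad, Hist2h3c2, Hist2h2be, Il4ra, Jak1, Scn10a and marker genes were added. Another gene among those with the lowest p is not reported here.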

Additional observations from a re-analysis of the deposited data

How the results depend on the processing

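No histone member passed under any of the 22 alternatives, which covered other size factors, filters and tests (DESeq2 1.42.0, limma 3.58.1 voom), corrections for GC content and length, thinned depth, a replicate block and libraries left out. The lowest adjusted p of a member ran from 0.215 to 0.553. The count of all tested genes past the threshold was 3, and became 231 with DESeq2, 78 without a filter on low counts, 55 with a replicate block over the 8 libraries that share a number, 10 over the same libraries without the block, and 563 with Littermate 2 and Experimental 6 both left out. Leaving out 1 library gave 3 to 343, with 343 without Littermate 2, 28 without Experimental 6 and 8 without Littermate 3. Same-numbered mice correlated at -0.021 to 0.091, and only number 3 correlated best with its own number. The fit without the block over these 8 libraries and the split by shared windows were chosen after seeing the data. The members' median log2 fold change was -0.12 and ran from -0.17 to -0.02 with 1 library left out. It was -0.01 after the GC correction, 0.02 without Littermate 2 and Experimental 6, and -0.05 over the 21 members with under 50% of windows shared. Median GC content of the longest transcripts was 58.3% in tested members and 49.7% in all tested genes. The H1 median ran from -0.15 to 0.06 and the H4 median from -0.20 to 0.03 with 1 library left out. They were 0.08 and 0.05 without Littermate 2 and Experimental 6. The H2A median was 0.062 after the GC correction. Log2 fold changes that changed sign were, after the GC correction, Hist1h2ab at 0.043, Hist1h2ak at 0.091, Hist1h2bb at 0.054 and Hist2h2ac at 0.033. Without Littermate 2 and Experimental 6 they were Hist1h1a at 0.084, Hist1h2bb at 0.069, Hist1h2bc at 0.020, Hist1h4h at 0.020, Hist3h2ba at 0.26 and Hist4h4 at 0.097, and with thinned counts Hist3h2ba at 0.0093. With 1 library left out the range was -0.19 to 0.043 for Hist1h1a, -0.0080 to 0.10 for Hist1h1c, -0.19 to 0.11 for Hist1h1e, -0.094 to 0.050 for Hist1h2bb, -0.074 to 0.0089 for Hist1h2bc, -0.15 to 0.0073 for Hist1h2bg, -0.028 to 0.074 for Hist1h4c, -0.28 to 0.21 for Hist3h2ba and -0.22 to 0.10 for Hist4h4. The cause was not tested. Standard errors of the members ran from 0.08 to 0.36, and the largest was that of Hist1h4n, whose Littermates lay far apart. Depth limits the low members, such as Hist2h3c2 with 3 counts in 1 library.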
